A study of Mus musculus with 3 samples.

Results

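In 4T1 CSCsp, RNA of 8 genes of cholesterol synthesis and its feedback control was followed: Hmgcs1, Mvd, Idi1, Fdps, Fdft1, Sqle, Lss and Insig1. They were chosen by symbol, and their 8 symbols stand among 24402 with a transcript in the files, of which 10464 reached an FPKM of 1 in a library. The 4T1 line is a model of triple negative breast cancer from Balb/c mice, and its CSCsp are cancer stem cell spheroids formed over 7 days on ultralow attachment plates. The libraries, 1 per condition, are labelled as CSCsp that shared their culture with tumor antigen primed splenocytes after reinforced activation (R), CSCsp that shared it with the primed splenocytes alone (P), and CSCsp without co-culture (N). The splenocytes came from female mice, 8 weeks old when the tumor cells were injected, that had carried 4T1 tumors for 28 days, and reinforcement was done with anti-CD3/CD28 beads and IL2. The co-culture lasted 2 days, and spheroids were then retained on a 40 μm strainer. By the study, equal amounts of RNA of 4 independent experiments were multiplexed, and whether each library is a pool of them is not stated. All groups therefore share 1 tumor cell line, and each is 1 library with no replicate, SD or test of any difference.

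Cells make cholesterol from acetyl-CoA along the mevalonate pathway: the early steps build isoprenoid units, which are joined into farnesyl diphosphate, paired into squalene, oxidized and closed into the first sterol, lanosterol. Transcription of nearly all of these enzymes is raised by sterol-responsive transcription factors that leave the endoplasmic reticulum when membrane cholesterol is low. Insig proteins hold these factors in place when sterols are plentiful, and Insig1 is itself one of their target genes, so that enzymes and brake are commonly transcribed together.

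The libraries held 19178982 (R), 17887652 (P) and 17894139 (N) fragments. Transcript levels are FPKM, fragments scaled for transcript length and library size, and so can be set side by side between genes. Intervals are exact 95% intervals on the fragments, rescaled to the FPKM level or ratio, and leave out any error between experiments. The spheroids carried the epithelial markers of a mammary carcinoma, with 8 of 8 at 1 FPKM or more in each library and summed levels of 1704 (R), 2008 (P) and 2286 FPKM (N). These markers did not all move alike, since 2 of the 8 were higher in R than in N and the others lower. Of 8 T cell and 4 B cell markers, 0 reached 1 FPKM in any library, and Cd3e was at 0 in the libraries labelled P and N. Pan-leukocyte markers at 1 FPKM or more numbered 5, 1 and 4 of 8 in the libraries labelled R, P and N, with summed levels of 19.0 (R), 12.5 (P) and 19.7 FPKM (N), and Ptprc, Cd52 and Tyrobp were at 0 in P. Lcp1 alone had 12.3 (R), 12.1 (P) and 12.4 FPKM (N), most of each sum. Macrophage markers summed to 32.7 (R), 18.7 (P) and 51.5 FPKM (N), with 3, 1 and 2 of 8 at 1 FPKM. By whole loci the macrophage sum was 50.6 in R, 18.9 in P and 51.5 FPKM in N, since Mpeg1 had 24.5 FPKM per locus in R against 6.59 by its named transcript. Per locus Mpeg1 had 0.23 FPKM in P and 0.70 in N, so that R was highest for it. Neutrophil markers summed to 9.40 (R), 0.83 (P) and 16.2 FPKM (N), with 3, 0 and 4 of 7. Lyz2, a lysozyme of myeloid cells, had 6.51 (R), 0.31 (P) and 28.9 FPKM (N), most of the macrophage sum in N. Leukocyte RNA was thus lowest in the library labelled P and present in the library labelled N, which the labels give as free of splenocytes. The name under which the N library was deposited refers to saline, and that of the P library to no treatment. By the study's methods, primed splenocytes without reinforcement were incubated in saline, so it is uncertain which of these libraries had no co-culture. AW112010, a long noncoding RNA named after its values were seen, had 32.1 FPKM in R, 5.42 in P and 0.75 in N, and was thus not lowest in P. The libraries are called by their labels throughout. The part of leukocyte RNA in the levels below was not tested, and in such bulk RNA fewer cells of a type cannot be told apart from less RNA per cell.

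The sequence before the start site of 5 of the 8 genes was found in RefSeq promoters of GRCm38.p6. The 200 bases upstream are shown for these 5 because sterol control of this pathway usually runs through boxes near the start site. Capitals mark, on either strand, the core of the sterol regulatory element (TCACNCCAC), the E-box (CACGTG), the NF-Y box (CCAAT) and the GC box (GGGCGG). The motifs do not overlap in these sequences, and of the motifs searched Mvd, Idi1 and Lss hold only NF-Y and GC boxes. Other forms of these elements were not searched for.
Hmgcs1: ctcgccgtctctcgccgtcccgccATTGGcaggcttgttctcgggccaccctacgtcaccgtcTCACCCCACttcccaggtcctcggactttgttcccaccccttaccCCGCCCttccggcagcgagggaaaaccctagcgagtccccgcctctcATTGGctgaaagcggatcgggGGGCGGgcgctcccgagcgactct
Mvd: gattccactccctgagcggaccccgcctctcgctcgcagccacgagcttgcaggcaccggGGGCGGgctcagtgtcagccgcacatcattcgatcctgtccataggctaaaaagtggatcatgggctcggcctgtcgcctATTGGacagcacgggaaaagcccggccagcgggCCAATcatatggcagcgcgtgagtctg
Idi1: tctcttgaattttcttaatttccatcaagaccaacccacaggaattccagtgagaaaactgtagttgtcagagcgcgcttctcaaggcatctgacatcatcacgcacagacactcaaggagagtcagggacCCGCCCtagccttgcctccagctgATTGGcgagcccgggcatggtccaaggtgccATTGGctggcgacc
Lss: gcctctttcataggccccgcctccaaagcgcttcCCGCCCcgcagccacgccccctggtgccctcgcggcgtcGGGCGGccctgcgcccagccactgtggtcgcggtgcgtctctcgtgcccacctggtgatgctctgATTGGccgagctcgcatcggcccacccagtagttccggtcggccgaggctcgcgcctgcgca
Insig1: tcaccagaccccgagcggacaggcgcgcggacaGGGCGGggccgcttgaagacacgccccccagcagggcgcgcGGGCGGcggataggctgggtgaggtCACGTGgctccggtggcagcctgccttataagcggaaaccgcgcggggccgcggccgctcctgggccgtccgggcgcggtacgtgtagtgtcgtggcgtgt
These stretches are chr13:119690151-119690350 on the plus strand for Hmgcs1, chr8:122443423-122443622 on the minus strand for Mvd, chr13:8885406-8885605 on the plus strand for Idi1, chr10:76531405-76531604 on the plus strand for Lss and chr5:28071212-28071411 on the plus strand for Insig1. The motifs were counted from 250 bases before to 50 bases after the start. The sterol regulatory element core was present in 1 of the 5, Hmgcs1, at -137 to -129, and in 1.24% of 32851 promoters of the same length. The E-box stood in Insig1 at -101 to -96, and in 7.15% of promoters. The NF-Y box was present in 5 of 5, against 37.4% of promoters, and the GC box in 5 of 5, against 35.7%. In Insig1 the NF-Y box lies at -216 to -212, beyond the stretch shown. A match is a run of letters, and binding was not measured.

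Between reinforced co-culture and no co-culture, 6 of the 8 genes stood higher in the library labelled R by more than counting error. These were Mvd and Idi1 at 1.53-fold each, Sqle at 1.37-fold, Fdps at 1.35-fold, Insig1 at 1.32-fold and Hmgcs1 at 1.31-fold. Lss was near level, and Fdft1 depended on which of its transcripts were counted. Of the 10270 genes that reached 1 FPKM in R or N, 35.6% had such an interval above 1. Whether an interval leaves out 1 also depends on the number of fragments. Fragment numbers were not matched between the 8 and all genes, here or in the shares of this kind below. Mvd and Idi1, 2 of the 8, were past 1.5-fold, against 11.7% of all genes, a narrow margin that left 0 past it with a pseudocount of 1 FPKM or after rescaling by the median ratio. A 2-fold ratio was reached by 0 of the 8 genes, against 5.17% of all genes. A lower level by 1.5-fold was seen in 0 of the 8, against 7.47%. On the log2 scale, with 0.1 FPKM added to each level, the median ratio of the 8 was 0.42, against 0.088 over all genes. The difference was thus small for each gene and mostly on the same side. Without the library labelled N, that is between the libraries labelled R and P, 6 of the 8 were higher in R by more than counting error, against 33.9% of all genes, with a median of 0.36 against 0.056. Past 1.5-fold in that comparison was 1 of the 8, Sqle, against 12.7% of all genes. The comparisons of R share a library and are not independent of each other.

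**Figure D1:**
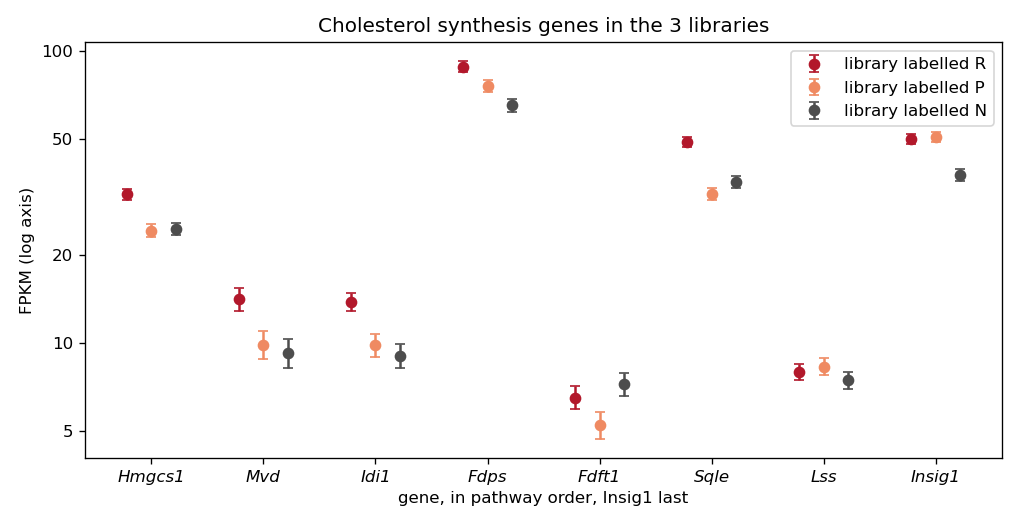
FPKM of the 8 genes on a log axis in the libraries labelled R, P and N, as points with 95% exact Poisson intervals that cover counting error only. Mvd, Idi1, Hmgcs1, Sqle and Fdps are highest in R, Insig1 is at 49.9 (R) and 50.7 (P) above 37.7 (N), and Lss lies between 7.44 and 8.29 in all 3.

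Hmgcs1 (chr13:119690351-119708260, plus strand), the earliest of these enzymes in the pathway, is the cytosolic HMG-CoA synthase, which feeds acetyl units into the mevalonate pathway. It had 32.3 FPKM in the library labelled R, 24.2 in P and 24.6 in N. The level of R stood apart, while P and N lay within counting error of each other, with a P over N ratio of 0.99 (0.92 to 1.06). Its ratios were 1.31 (1.23 to 1.40) for R over N and 1.33 (1.25 to 1.42) for R over P.

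Mvd (chr8:122433596-122443422, minus strand) is mevalonate diphosphate decarboxylase, which forms the first isoprenoid unit. Its level was 14.1 FPKM in R, 9.85 in P and 9.22 in N. Idi1 (chr13:8885606-8892396, plus strand), the isomerase that turns that unit into its reactive partner, had 13.8 FPKM in R, 9.80 in P and 9.01 in N. Both genes were thus alike in level and in pattern, high in R and close to each other in P and N. Mvd gave an R over N ratio of 1.53 (1.32 to 1.78) on 476 fragments in R, 310 in P and 290 in N. Its R over P ratio was 1.43 (1.24 to 1.66). Idi1 gave 1.53 (1.36 to 1.72) for R over N and 1.41 (1.26 to 1.58) for R over P. Their P over N ratios, 1.07 (0.91 to 1.26) for Mvd and 1.09 (0.96 to 1.24) for Idi1, did not leave counting error. Among all genes tested 10.9% had a higher R over N ratio than Mvd and 10.8% a higher one than Idi1.

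Fdps (chr3:89093588-89101967, minus strand) is farnesyl diphosphate synthase, whose product goes to sterols and to protein prenylation. It was the most abundant of the 8, with 88.5 FPKM in R, 75.8 in P and 65.4 in N. It was the only 1 of the 8 whose level in P lay between R and N by more than counting error on both sides. The ratios were 1.35 (1.27 to 1.45) in R over N, 1.17 (1.10 to 1.25) in R over P and 1.16 (1.08 to 1.24) in P over N.

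Sqle (chr15:59315092-59331193, plus strand) is squalene epoxidase, a rate-limiting enzyme of the sterol-specific branch. Its level was 49.0 FPKM in R, 32.4 in P and 35.7 in N. R was again highest, but P was the lowest library. Sqle had the highest R over P ratio of the 8, 1.51 (1.42 to 1.61), beside 1.37 (1.29 to 1.46) for R over N and 0.91 (0.85 to 0.97) for P over N. Its neighbour in the pathway, Lss (chr10:76531605-76557139, plus strand), is lanosterol synthase, which closes the ring. Lss had 7.94 FPKM in R, 8.29 in P and 7.44 in N. These levels lay close together, and the R over N ratio of 1.07 (0.97 to 1.17) and the R over P ratio of 0.96 (0.88 to 1.05) included 1. Its P over N ratio was 1.11 (1.01 to 1.22).

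Insig1 (chr5:28071412-28078662, plus strand), the sterol-sensing brake, had 49.9 FPKM in R, 50.7 in P and 37.7 in N. P stood with R, and N apart, whereas P stood nearer to N for Hmgcs1, Mvd, Idi1 and Sqle. The ratios were 1.32 (1.25 to 1.41) in R over N, 0.98 (0.93 to 1.04) in R over P and 1.35 (1.27 to 1.43) in P over N. With the labels N and P exchanged the same values read as Insig1 level between reinforced and no co-culture and lower in primed co-culture. The direction of Insig1 against untreated spheroids therefore rests on the labels.

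Fdft1 (chr14:63145151-63179578, minus strand) is squalene synthase, the first committed enzyme of the sterol branch. Its RefSeq transcript had 6.48 FPKM in R, 5.21 in P and 7.21 in N, which put N highest. The R over N ratio of that transcript was 0.90 (0.79 to 1.02), the R over P ratio 1.25 (1.08 to 1.44) and the P over N ratio 0.72 (0.63 to 0.83). The quantification also assigned reads at this locus to 2 transcripts assembled from the reads, without a gene name. With these included the locus had 14.1 FPKM in R, 11.8 in P and 12.9 in N, so that R became highest. The whole-locus ratios were 1.09 (1.01 to 1.18) in R over N, 1.20 (1.10 to 1.30) in R over P and 0.91 (0.84 to 0.99) in P over N. Counted as fragments per aligned base over the whole locus, P and N were level. The locus had 1297 fragments in R, 1091 in P and 1097 in N. The log2 ratios of these were 0.14 in R over N, 0.15 in R over P and -0.0072 in P over N. The P over N difference of the locus was thus seen by FPKM only. With whole loci 7 of the 8 genes were above counting error in R over N, against 34.3% of all genes, and the medians were 0.42 for the 8 and 0.078 for all genes.

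**Figure D2:**
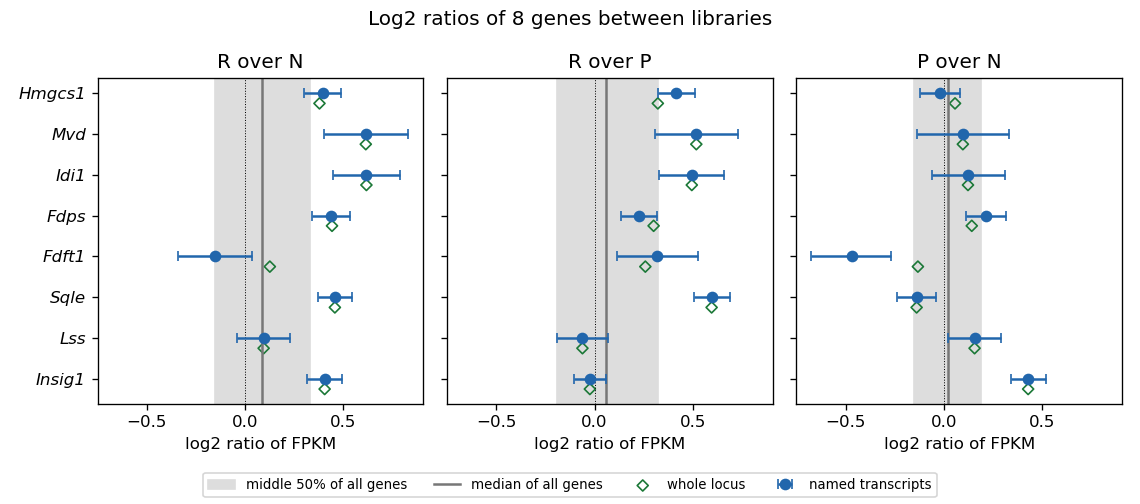
Log2 ratios of FPKM in R over N, R over P and P over N. Filled points are named transcripts with 95% counting intervals, open diamonds are whole loci, the grey band holds the middle 50% of all genes tested and the grey line their median, 0.088 in R over N, 0.056 in R over P and 0.021 in P over N. In R over N all genes but Fdft1 and Lss lie to the right of the band, and in P over N Insig1 and Fdps lie to its right.

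Between primed co-culture and no co-culture the 8 genes lay on both sides. Fdps, Lss and Insig1 were above counting error in P, 3 of 8 against 22.9% of all genes, and Fdft1 and Sqle below it, 2 of 8 against 19.7%. None of the 8 was past 1.5-fold: 0 were higher, against 6.0% of all genes, and 0 lower, against 7.06%. The median of the 8 was 0.11 on the log2 scale, against 0.021 over all genes. All of these directions turn round with the labels N and P exchanged.

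By named transcripts the order of levels was the same in the 3 libraries, Fdps, Insig1, Sqle, Hmgcs1, Mvd, Idi1, Lss and Fdft1 from high to low. Fdps then exceeded Fdft1 by 13.7-fold in R, 14.6-fold in P and 9.07-fold in N. By whole loci it did so by 7.43-fold in R, 7.21-fold in P and 5.97-fold in N, and Lss was lowest. Fdft1 then stood above Mvd and Idi1 in P and N, and between them in R. By named transcripts Mvd and Idi1, neighbours in the order, differed by less than their counting intervals in each library, and so did Insig1 and Sqle in R and N, and Lss and Fdft1 in N.

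Transcripts of a gene did not always share its ratio. Hmgcs1 was read as 2 RefSeq transcripts that differ by a short second exon of 59 bases, present in NM_145942 and absent from NM_001291439. NM_145942 had 12.0 FPKM in R, 10.9 in P and 7.45 in N, and NM_001291439 had 20.3 in R, 13.3 in P and 17.1 in N. The form with the exon thus had P near R, and the form without it had P lowest. Their R over N ratios were 1.61 (1.44 to 1.81) for NM_145942 and 1.19 (1.09 to 1.28) for NM_001291439. Fdps was read mainly as NM_134469, with 81.2 FPKM in R, 69.3 in P and 62.6 in N. Its minor form NM_001253751 had 7.30 FPKM in R, 6.48 in P and 2.77 in N, an R over N ratio of 2.64 (2.02 to 3.52) and a P over N ratio of 2.34 (1.77 to 3.14). N stood apart for this minor form, which rests on 205 fragments in R, 169 in P and 72 in N. How reads are divided between overlapping transcripts is an estimate of the quantification, and its error is not in these intervals.

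**Figure D3:**
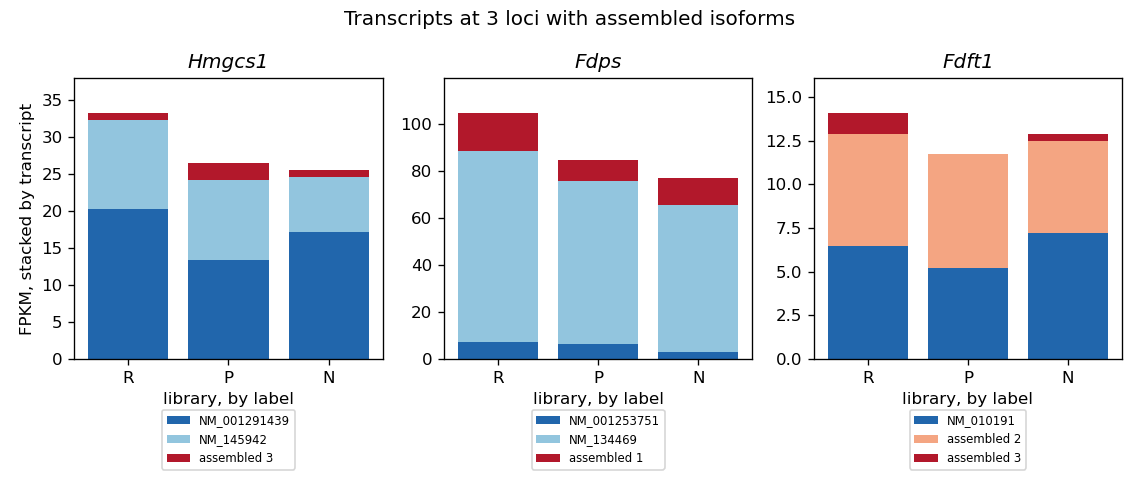
FPKM stacked by transcript at the Hmgcs1, Fdps and Fdft1 loci in the libraries labelled R, P and N, with assembled transcripts numbered as in the files. For Fdft1 the RefSeq transcript is highest in N, at 7.21, while the whole bar is highest in R, at 14.1.

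Coverage of single exons bypasses that division. Over exons with the same ends in every transcript of a locus, assembled ones included, coverage per aligned base was higher in R than in N in 9 of 9 exons of Hmgcs1, 10 of 10 of Mvd, 5 of 5 of Idi1, 9 of 9 of Fdps, 11 of 11 of Sqle and 5 of 5 of Insig1. The log2 ratios of R over N spanned 0.17 to 0.52 in Hmgcs1, 0.40 to 0.77 in Mvd, 0.35 to 0.62 in Fdps and 0.28 to 0.74 in Sqle. In Idi1 the first exon, at 0.055, stood below the others, which ran up to 0.73. Fdft1 was higher in R than in N in 5 of 6 shared exons, between -0.023 and 0.29, on the side of its whole-locus value. Lss was mixed, with 15 of 22 exons above 0 and a range of -0.37 to 0.38. For R over P all shared exons of the same enzymes but Lss were above 0, which includes 6 of 6 of Fdft1, while Insig1 had 2 of 5 and Lss 9 of 22. Exons of a gene come from the same RNA and are not replicates.

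**Figure D4:**
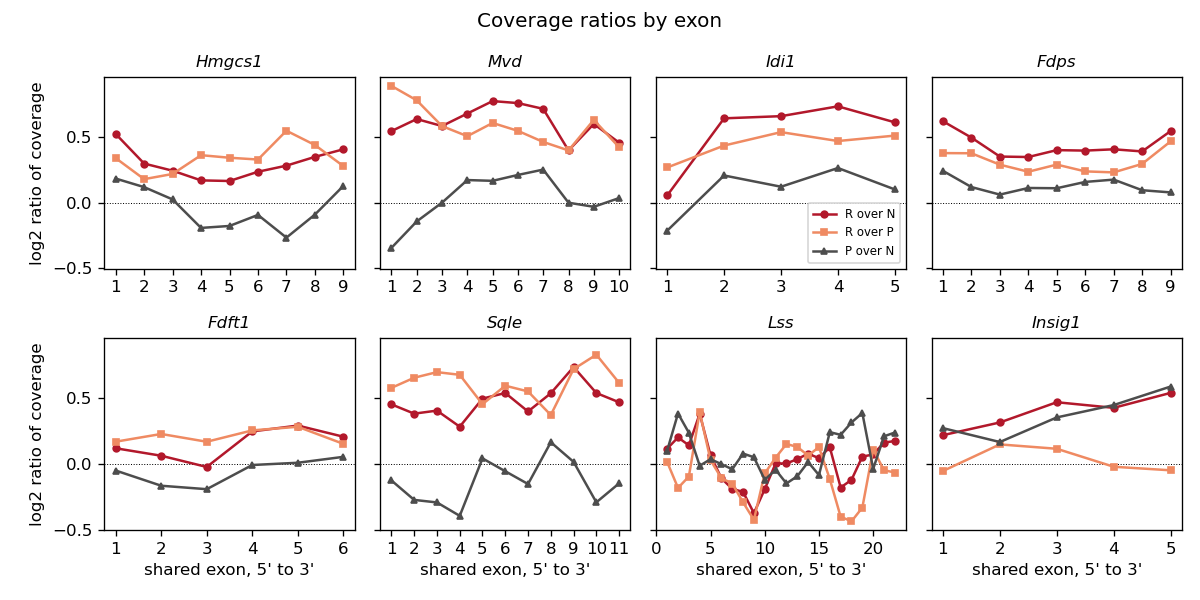
Log2 ratio of coverage per aligned base for each shared exon, 5′ to 3′, in R over N (circles), R over P (squares) and P over N (triangles). The R over N and R over P lines run above 0 in Hmgcs1, Mvd, Idi1, Fdps and Sqle, cross 0 repeatedly in Lss, and part in Insig1, where R over N and P over N run together.

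Of 15 other enzymes of the pathway listed, 14 had an FPKM of at least 1 in a library, and by whole loci 13 of the 14 were above 0 on the log2 scale for R over N, against 60.3% of all genes, with a median of 0.31. For R over P 14 of 14 were above 0, against 54.3%, with a median of 0.29, and for P over N 9 of 14, against 56.4%, with a median of 0.067. By named transcripts 12 of the 14 were above 0 for R over N, against 60.0% of all genes. Of the others, 1 was lower by 2-fold, against 3.8% of all genes, but by whole locus this gene was above 0. Past 1.5-fold for R over N by whole loci were 3 of the 14, against 8.21% of all genes. Msmo1, the methyl sterol monooxygenase that removes methyl groups after lanosterol, was among these 3, with 47.9 FPKM per locus in R, 30.8 in P and 29.0 in N. Its whole-locus R over N ratio was 1.65 (1.52 to 1.79). Ebp, a sterol isomerase, was the 1 gene of the 14 not above 0 for R over N, with 9.85 FPKM in R, 8.58 in P and 10.3 in N, and it was named after its values were seen.

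Sterol regulation and uptake, a list of 10 genes with 9 measured, had a whole-locus median of 0.39 in R over N, 0.19 in R over P and 0.11 in P over N. Of the 9, 8 were above 0 in R over N, against 60.3% of all genes. In R over P 5 of the 9 were above 0, against 54.3%, and in P over N 6 of the 9, against 56.4%, both near the share of all genes. Scap, the escort that carries the sterol-responsive factors to the Golgi and is bound by Insig proteins, had 17.1 FPKM in R, 10.7 in P and 11.6 in N. Its R over N ratio was 1.48 (1.35 to 1.61). Mbtps2, a Golgi protease that frees these factors, had 6.66 FPKM per locus in R, 4.83 in P and 4.47 in N, with an R over N ratio of 1.49 (1.31 to 1.70). Insig2, the second Insig protein, was the 1 gene of the 9 lower in R than in N, and was named after its values were seen. It had 23.5 FPKM per locus in R, 28.4 in P and 30.1 in N, an R over N ratio of 0.78 (0.73 to 0.84). Insig1 and Insig2 thus stood on opposite sides in R over N, which for Insig1 rests on the labels N and P. In R over P neither was higher in R, with whole-locus ratios of 0.98 (0.93 to 1.04) for Insig1 and 0.83 (0.77 to 0.89) for Insig2.

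Fatty acid synthesis, which shares part of this transcriptional control, had 11 listed genes, all measured by whole loci, with a median of 0.28 in R over N, 0.16 in R over P and 0.13 in P over N. The medians of all genes by whole loci were 0.078 in R over N, 0.031 in R over P and 0.032 in P over N. Above 0 were 9 of 11 in each comparison, against 60.3% of all genes in R over N, 54.3% in R over P and 56.4% in P over N. Elovl6, a fatty acid elongase, had 17.1 FPKM per locus in R, 14.7 in P and 11.0 in N. Scd2, a stearoyl-CoA desaturase and the most abundant of the list, had 157 FPKM in R, 194 in P and 165 in N, so that P was highest. Of 9 genes of sterol efflux, esterification and oxysterols 3 were measured, and their median was 0.090 for R over N. Soat1, which esterifies cholesterol for storage, had 16.1 FPKM in R, 15.9 in P and 15.1 in N.

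**Figure D5:**
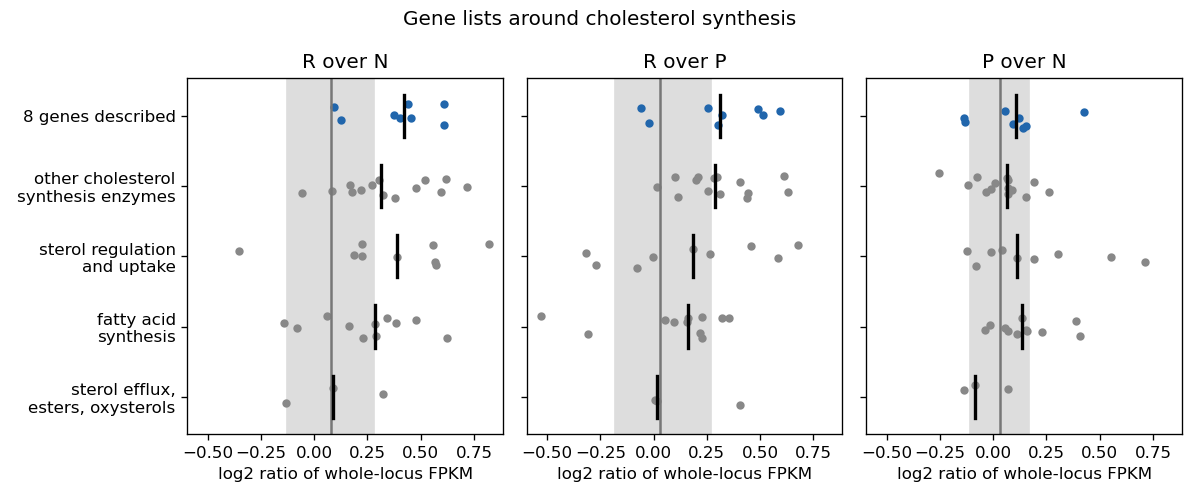
Whole-locus log2 ratios in R over N, R over P and P over N, 1 point per gene, for the 8 genes described (blue) and 4 lists around them (grey), with black bars at list medians, a grey band for the middle 50% of all genes and a grey line for their median. For R over N the medians of the 8 genes, the other enzymes and the sterol regulation list are 0.42, 0.31 and 0.39, beyond the upper edge of the band at 0.28, where the fatty acid median also lies.

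The median profile of the 8 genes over the 3 libraries was 0.24 in R, -0.13 in P and -0.17 in N, as log2 levels centred on each gene's mean. Outside the lists, the genes nearest to it by Euclidean distance were Bin3, Atg16l1, Nsf, Cox15 and Degs1, at distances of 0.033 to 0.035. Degs1, a ceramide desaturase, had 63.4 FPKM in R, 48.3 in P and 47.3 in N. Over 3 libraries many genes share a profile, and 248 of 5702 candidates lay within a distance of 0.1.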

How the data were processed

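The 3 RNA-seq libraries of 4T1 CSCsp were grouped by their labels. The authors aligned reads with HISAT2 (2.2.0) and quantified RefSeq and assembled transcripts with StringTie, 2.1.3 in the submitters' processing notes but 2.1.5 in the headers. Each transcript has a coverage, an FPKM and a TPM, as deposited by the authors. The notes name mm9, but the coordinates match GRCm38 for 99.3% of 23188 symbols, and positions are given as in the files. Filters on reads: not given in the sources used here. FPKM was summed per gene over named transcripts. No assembled transcript carries a gene name, so a sum over RefSeq transcripts alone is the same value. Whole loci add assembled transcripts of loci with 1 symbol. Aligned bases, 5753694559 in R, 5366295651 in P and 5368241778 in N, came from coverage over FPKM, and fragments from 300 bases per read pair. Ratios carry exact Clopper-Pearson intervals and levels exact Poisson intervals (95%), computed on fragments, rescaled to the FPKM value, and for counting error only. Log2 ratios and calls at 1.5-fold and 2-fold use a pseudocount of 0.1 FPKM and genes at 1 FPKM or more in a library of the comparison. Plain ratios and their intervals carry no pseudocount. With 1 library per condition no test was run. The counts and intervals were run on simulated Poisson counts. These hold no error between experiments and no division of reads between transcripts, so they check the arithmetic only.

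The 8 genes and the lists were chosen with earlier results of these data known. Of each other list, up to 4 genes with the largest absolute log2 ratio of R over N, in either direction, and the most abundant could be named. So could the 5 genes nearest in profile. Some genes under this rule are not reported here. Alternatives are given in the closing section. Promoter sequences came from RefSeq (GRCm38.p6). Python 3.11.15 was used with SciPy 1.17.1, pandas 2.3.3, Matplotlib 3.10.9 and NumPy 2.4.6.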

Additional observations from a re-analysis of the deposited data

Results flagged for a closer look

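Reads at 3 of the 8 loci, Hmgcs1, Fdps and Fdft1, were also assigned to 4 assembled transcripts that carry no gene name, and 3 of these were higher in R than in N by more than counting error. The other, at Hmgcs1, had 0.85 FPKM in R, 2.29 in P and 0.94 in N, an R over N ratio of 0.91 (0.62 to 1.31). At Fdps 1 such transcript had 15.9 FPKM in R, 9.03 in P and 11.5 in N, an R over N ratio of 1.39 (1.23 to 1.57). At Fdft1 the transcript numbered 2 had 6.41 FPKM in R, 6.55 in P and 5.28 in N, a ratio of 1.21 (1.09 to 1.35). The transcript numbered 3 had 1.17 FPKM in R and 0.39 in N and was listed at 0 in P, a ratio of 2.98 (1.69 to 5.45) on 54 fragments in R and 17 in N. The assignment of reads between such transcripts was not tested.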

How the results depend on the processing

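With 1 library per condition no library can be left out of a comparison. No paired analysis was possible because the labels give no replicate numbers that conditions share. The median log2 ratios of the 8 genes in the comparisons of R kept their sign under every alternative run. They stayed between the median lower and median upper limits of the 8 counting intervals. That span is not an interval for the median. The alternatives were rescaling by the median ratio, TPM, a pseudocount of 0.01 or 1, the transcript with the highest mean and whole loci. Whole-locus fragments per aligned base were added after seeing the data. N and P were also exchanged, which only swaps R over N with R over P. No filter and a filter of 5 FPKM could not move these medians, since the 8 genes were kept under either. The number of the 8 past 1.5-fold was less stable. For R over N it was 2, and became 0 with a pseudocount of 1, 0 after rescaling, and 1 with N and P exchanged. For R over P it was 1, and became 0 with a pseudocount of 1, 0 after rescaling, 2 with the transcript of the highest mean, and 2 with N and P exchanged. The median for P over N became -0.11 with N and P exchanged.

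Among log2 ratios beyond counting error, that exchange also changed the sign of Insig1 for R over N (-0.024) and Fdft1 for R over P (-0.15). The counting intervals of both exchanged values include 0. Every P over N log2 ratio changes sign under the exchange by construction, so this separates no genes. Those beyond counting error became -0.21 for Fdps, 0.46 for Fdft1, 0.14 for Sqle, -0.15 for Lss and -0.43 for Insig1. Of 24 log2 ratios of single genes, the exchange left 8 within their counting intervals, whole loci 22, whole-locus fragments 19, the transcript with the highest mean 21, and each other alternative 24. The filters could not move these ratios. Fdft1 for R over N was -0.15 by its named transcript and 0.12 by whole locus. Over all genes, 1197 were higher and 767 lower by 1.5-fold for R over N, against 941 and 917 after rescaling, 2163 and 1791 with no filter, and 643 and 330 with a filter of 5 FPKM. For R over P they were 1307 and 857, against 2397 and 1854 with no filter and 755 and 387 with a filter of 5 FPKM. For P over N they were 612 and 720, against 1491 and 1754 with no filter, 227 and 291 with a filter of 5 FPKM, 282 and 430 by whole loci, 1092 and 987 by TPM, and 397 higher with a pseudocount of 1. At this depth counting error left Lss undecided in both comparisons of R, and no error between experiments could be measured.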
